A study of Mus musculus with 5 samples.

Results

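Cell cycle and DNA replication genes were examined in a lung myeloid population of wild-type mice, sorted as CD11b+Gr1+. They are 37 genes fixed by name, of which 13 act in or prepare DNA replication, 22 act from G2 through cytokinesis, and Stmn1 and Hmgb2 belong to neither phase alone. A gene was measured when at least 1 probe set carried its symbol and no other, and where a gene had several the brightest by 5-array mean was used. This gave 32 of the 37 genes, 11 for replication and 21 for mitosis, out of 14807 genes in all. Pcna, Rrm2, Ccnb1, Stmn1 and Hmgb2 had no such probe set and are not analysed here. In the tumour-challenged group (2 arrays), 5000000 LLC-RFP cells, mouse Lewis lung carcinoma cells that carry a red fluorescent protein, had been injected under the skin 9 days earlier. The control group (3 arrays) came from wild-type mice without tumour cells. For each sample about 100000 cells double-positive for CD11b, an integrin chain of myeloid cells, and Gr1, an epitope of neutrophils and inflammatory monocytes, were sorted. The labels call these cells myeloid progenitors and give no strain, age or number of mice behind a sample, so p-values measure the spread between these samples, which may be technical.

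Dividing cells switch these genes on in order. Before S phase the MCM helicase is loaded on replication origins by Cdc6, and ribonucleotide reductase, thymidylate synthase and thymidine kinase supply nucleotides. From G2 onward cyclins A and B with Cdk1, the Aurora and Polo kinases, centromere proteins and motor kinesins drive mitosis, and the anaphase-promoting complex ends it. Neutrophils stop dividing before they mature in the bone marrow, while their precursors divide, so transcripts of this programme in a CD11b+Gr1+ sort are usually read as a measure of immature or other cycling cells. In sorted cells, fewer dividing cells and less transcript per cell cannot be told apart.

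The order in the cycle is written in the promoters. Genes of S phase often carry E2F sites, and genes of G2 and mitosis a cell cycle homology region (CHR) with CCAAT boxes, bound by the DREAM and MuvB complexes and by NF-Y. In RefSeq windows of build GRCm38.p6, from 250 bases before to 50 after the annotated start, TTTGAA or TTTAAA (the CHR words), CCAAT, and the E2F words TTTCCCGC, TTTGGCGC, TTTCGCGC and TTTGCCGC were counted on both strands, and matches were allowed to overlap. Windows were held for 12 of the 13 replication genes and 18 of the 22 mitotic genes. A CHR word and CCAAT stood together in 15 of the 18 mitotic genes (83.3%), in 3 of the 12 replication genes and in 12.2% of all 27025 genes with a window. An E2F word stood in 5 of the 12 replication genes (41.7%), in 1 of the 18 mitotic genes (Cdk1, 5.56%) and in 2.6% of all genes. Of the 21 measured mitotic genes, none passed the test described below, and 5 lay higher and 4 lower after tumour challenge without overlap. These were 23.8% and 19.0%, against 11.2% and 7.83% of all probe sets. Of the measured mitotic genes with a window, 3 lay higher and 3 lower in this way, and all of these held both a CHR word and CCAAT. So did 8 of the 11 with overlapping arrays (72.7%), so the pattern was common whether or not the arrays overlapped. The 120 bases before the start are shown for 7 genes to which the expression values below refer. They are 3 mitotic genes with lower means after tumour challenge (Cenpa, Top2a, Mki67) and 2 with higher means (Ube2c, Ccnb2). The others are the replication gene with the largest difference (Slbp) and a replication gene with close group means (Mcm6). Capitals mark matches to the words above on either strand.
Cenpa, chr5:30666766-30666885, plus strand: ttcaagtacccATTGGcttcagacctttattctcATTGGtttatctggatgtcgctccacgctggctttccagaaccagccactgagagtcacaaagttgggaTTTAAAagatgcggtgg
Top2a, chr11:99024190-99024309, minus strand: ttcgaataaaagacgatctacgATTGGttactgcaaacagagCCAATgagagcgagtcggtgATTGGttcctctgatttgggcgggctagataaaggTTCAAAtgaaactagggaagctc
Mki67, chr7:135716380-135716499, minus strand: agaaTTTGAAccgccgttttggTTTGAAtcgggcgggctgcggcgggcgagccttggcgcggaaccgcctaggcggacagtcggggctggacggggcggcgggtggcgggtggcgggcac
Ube2c, chr2:164769809-164769928, plus strand: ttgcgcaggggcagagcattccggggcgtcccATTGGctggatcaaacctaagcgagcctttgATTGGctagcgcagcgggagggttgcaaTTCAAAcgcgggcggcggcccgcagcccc
Ccnb2, chr9:70421555-70421674, minus strand: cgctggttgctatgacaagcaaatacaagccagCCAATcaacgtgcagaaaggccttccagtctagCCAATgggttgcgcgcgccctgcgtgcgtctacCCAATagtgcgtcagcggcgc
Slbp, chr5:33652575-33652694, minus strand: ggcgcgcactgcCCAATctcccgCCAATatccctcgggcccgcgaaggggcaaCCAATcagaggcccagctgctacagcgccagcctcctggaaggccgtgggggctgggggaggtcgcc
Mcm6, chr1:128359706-128359825, minus strand: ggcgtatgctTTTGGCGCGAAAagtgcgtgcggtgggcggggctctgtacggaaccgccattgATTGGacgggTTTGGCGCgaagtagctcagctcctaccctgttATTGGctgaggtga
Cenpa, Top2a and Ube2c show the mitotic pattern, with a CHR word between CCAAT matches and the start. The mitotic gene Ccnb2 shows 3 CCAAT matches in this stretch, and its CHR words lie outside it, with first bases at -167 and 5 from the start. Mki67 shows 2 CHR words here, and its CCAAT matches lie further upstream, with first bases at -188, -166 and -141. Mcm6 shows 3 E2F matches, 2 of which overlap, and 2 of CCAAT. Slbp, with 3 CCAAT matches, holds neither a CHR word nor an E2F word in its whole window. A match describes these letters and is not evidence of binding.

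No gene of the cell cycle list passed the test of tumour-challenged against control samples. Values are log2 expression values as deposited, and differences are tumour-challenged minus control, tested with limma over all 16661 probe sets with Benjamini-Hochberg adjustment at 0.05. Across all probe sets 0% were called, and the adjusted p-values of the 32 cell cycle genes ran from 0.698 for Ube2c to 1.0. Before adjustment, p was under 0.05 for 1 gene with a higher mean (Ube2c) and 3 with a lower mean (Slbp, Cenpa and Hmmr) of the 32, where all probe sets gave 3.58% higher and 2.96% lower. Only Slbp differed by more than 2-fold, which 0.132% of all probe sets did toward lower values and 0.144% toward higher. Of the 32 genes, 24 differed by less than 0.2 and 16 by less than 0.1 on the log2 scale. The median 95% confidence interval of a difference reached 0.32 to either side.

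Most of the cell cycle probe sets were dim. As a reference for background, the 95th percentile of the 5-array means was taken over 835 probe sets of olfactory, vomeronasal and taste receptors, genes not expected in blood cells, and it was 6.89. Among replication genes Mcm4, Mcm6 and Rrm1 had 5-array means above it, and among mitotic genes Mki67, Cenpa, Ccnb2, Aurka and Top2a, 8 of 32 together, against 8090 of all 16661 probe sets. Probe sets differ in brightness for equal amounts of transcript, so this reference says how a probe set reads on these arrays and gives no order of transcript amount between genes. A difference in a probe set at or below background may understate a change in its transcript and need not reflect one.

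**Figure D1:**
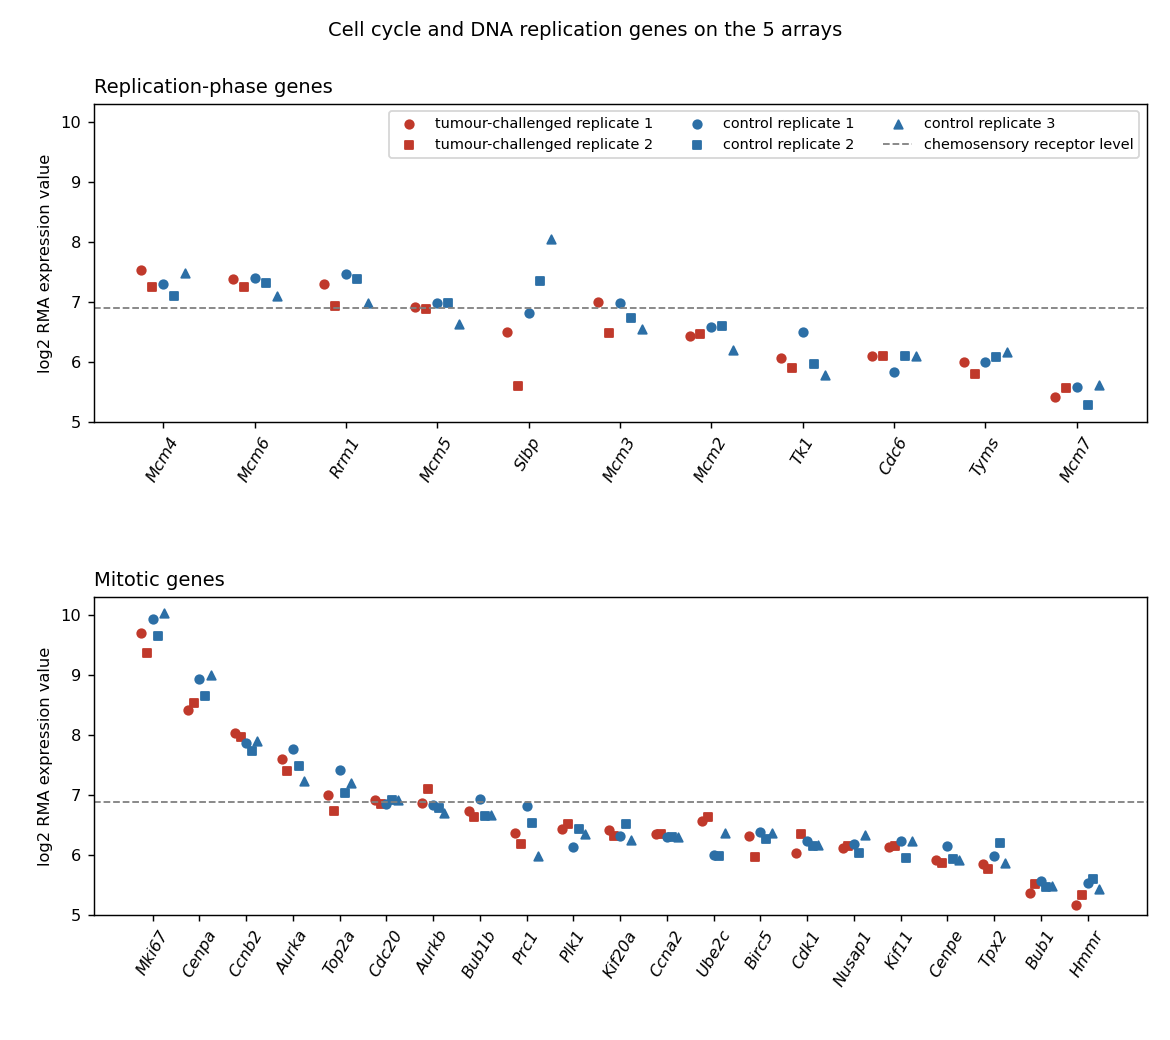
Log2 RMA expression value of each measured replication-phase gene (top) and mitotic gene (bottom) on each array, ordered by mean, with tumour-challenged arrays in red and control arrays in blue and the reference level of 6.89 dashed. Most genes lie below the dashed line, and the red and blue points of most genes are interleaved, with Slbp the widest.

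The origin-loading genes had close group means, with intervals that do not exclude moderate changes. Mcm4, a subunit of the MCM helicase, read 7.54 and 7.24 in the tumour-challenged and 7.31, 7.10 and 7.48 in the control samples. Mcm6, another subunit, read 7.38 and 7.25 against 7.40, 7.32 and 7.10. The arrays of both genes overlapped, with differences of 0.10 ± 0.16 (SE) and 0.04 ± 0.12 (SE). The 95% intervals ran from -0.33 to 0.52 for Mcm4 and from -0.27 to 0.36 for Mcm6. Mcm5 read 6.92 and 6.89 against 6.98, 6.99 and 6.63, a difference of 0.04 ± 0.13 (SE). Mcm2, Mcm3 and Mcm7, the other subunits measured, each differed by -0.01 on the log2 scale, and of their values only 2 of Mcm3 lay above the background reference. The 95% interval of Mcm3 ran from -0.58 to 0.56. Cdc6, the loading factor, had exactly equal values of 6.10 on 4 of the 5 arrays and 5.83 in control replicate 1, so its spread is not informative.

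The genes of nucleotide supply were slightly lower on average, within the spread between samples. Rrm1, the large subunit of ribonucleotide reductase, read 7.31 and 6.93 against 7.47, 7.38 and 6.99, a difference of -0.16 ± 0.20 (SE). Tyms, thymidylate synthase, read 6.01 and 5.80 against 6.01, 6.08 and 6.16, a difference of -0.18 ± 0.09 (SE) with touching groups and all values below the background reference. It was -0.28 without tumour-challenged replicate 1 and -0.076 without replicate 2 of that group. Tk1, thymidine kinase, read 6.07 and 5.90 against 6.51, 5.97 and 5.79, where the control samples alone spanned the tumour-challenged ones, and differed by -0.10 ± 0.24 (SE).

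Slbp stood apart from the other replication genes. It encodes the protein that binds the stem-loop of histone mRNAs, which end without a poly(A) tail, and its protein is made in S phase. Slbp (probe set 6937254) read 6.50 and 5.59 in the tumour-challenged and 6.82, 7.36 and 8.05 in the control samples, so the groups did not overlap, but the control samples alone covered 1.23 on the log2 scale. The means were 6.05 ± 0.64 (SD, n = 2) and 7.41 ± 0.62 (SD, n = 3), the former below the background reference, a 2.57-fold lower level with a log2 difference of -1.36 ± 0.48 (SE) and a limma adjusted p of 0.736. The difference was -0.91 when tumour-challenged replicate 2 was left out and -1.82 when replicate 1 of that group was. The 8 measured genes of histone mRNA processing that work beside Slbp had a median difference of 0.11, with 5 higher and 3 lower. Lsm10, of the particle that directs the cut in histone pre-mRNA, differed by 0.23 ± 0.25 (SE), and Eri1, the nuclease that trims histone mRNA ends, by 0.18 ± 0.14 (SE). Casp8ap2, a factor of the nuclear body at histone genes, differed by -0.17 ± 0.28 (SE) and Sympk, the scaffold of the cleavage complex, by 0.15 ± 0.13 (SE). The arrays of Sympk and Lsm11 lay higher without overlap, 2 of 8, and those of Zfp473 lower, 1 of 8. All probe sets gave 11.2% higher and 7.83% lower in this way. Lsm11 and Zfp473 were named after their values were seen. Sympk had equal values of 7.90 on the 2 tumour-challenged arrays, which lay only 0.009 above control replicate 1. Lsm11, the partner of Lsm10, differed by 0.15 ± 0.05 (SE; limma unadjusted p = 0.047) and Zfp473, a zinc finger protein of the same processing machinery, by -0.083 ± 0.05 (SE), with equal values on the 3 control arrays. None of these passed the test.

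**Figure D2:**
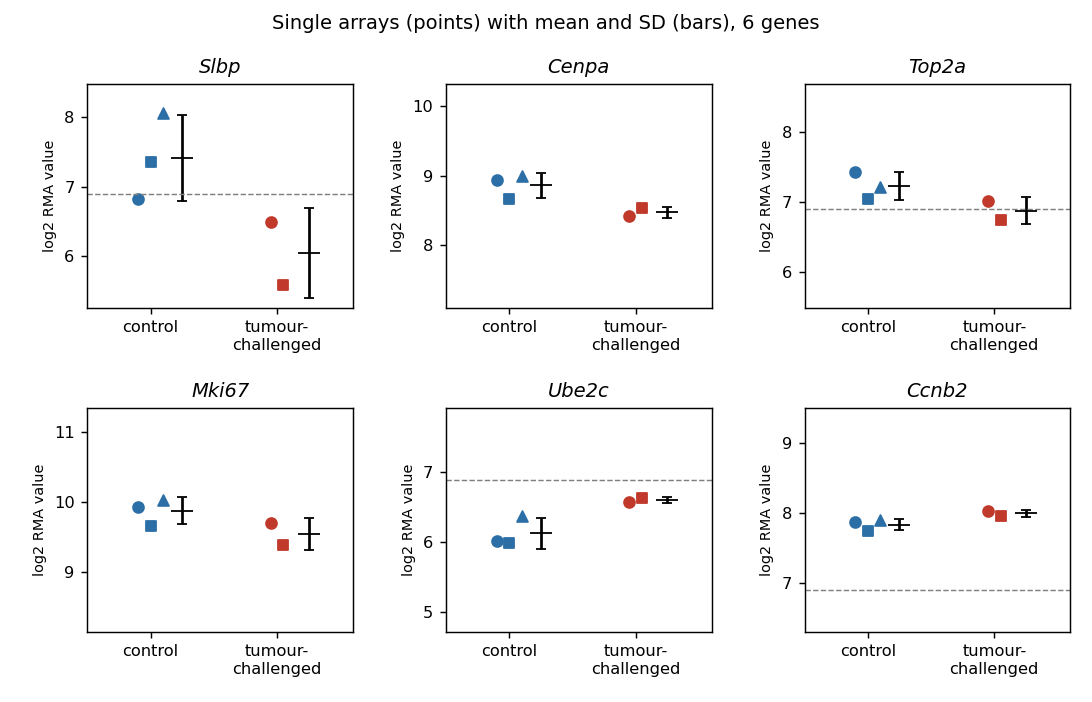
Log2 RMA value on each array (points; blue control, red tumour-challenged; circle, square and triangle for replicates 1, 2 and 3) with mean and SD (black) for Slbp, Cenpa, Top2a, Mki67, Ube2c and Ccnb2, all panels spanning the same log2 range, with the background reference of 6.89 dashed where it falls in the panel. Slbp shows both the largest difference, -1.36, and the widest spread within each group.

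Among the mitotic genes, Cenpa, Top2a, Mki67, Hmmr and Tpx2 had the lowest means after tumour challenge relative to control, by 0.21 to 0.39 on the log2 scale. Cenpa, the histone H3 variant that marks centromeres (probe set 6929632), read 8.42 and 8.53 against 8.93, 8.66 and 9.00. The groups did not overlap, and the means of 8.48 ± 0.08 (SD, n = 2) and 8.86 ± 0.18 (SD, n = 3) differed by -0.39 ± 0.13 (SE), a 1.31-fold lower level (95% interval -0.73 to -0.05, limma adjusted p = 0.717). Top2a, the topoisomerase that untangles sister chromatids, read 7.01 and 6.73 against 7.43, 7.04 and 7.21. Its groups were separated by only 0.03, between tumour-challenged replicate 1 and control replicate 2, and the difference was -0.35 ± 0.15 (SE). Mki67, whose protein Ki-67 coats mitotic chromosomes and is the usual marker of dividing cells, read 9.70 and 9.38 against 9.93, 9.65 and 10.03. Tumour-challenged replicate 1 lay within the control range, and the difference was -0.33 ± 0.16 (SE; limma adjusted p = 0.810). Without tumour-challenged replicate 2 the differences of Top2a and Mki67 were -0.22 and -0.17. Hmmr, a spindle assembly factor and hyaluronan receptor, read 5.16 and 5.34 against 5.53, 5.61 and 5.44 and differed by -0.27 ± 0.09 (SE) with all values below the background reference. Tpx2, an activator of Aurora A on the spindle, also had lower values without overlap, all below that reference, differing by -0.21 ± 0.12 (SE).

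Ube2c, Aurkb, Plk1, Ccnb2 and Ccna2 had higher means after tumour challenge, with no overlap between the groups. Ube2c, the ubiquitin-conjugating enzyme of the anaphase-promoting complex (probe set 6883114), read 6.57 and 6.64 against 6.01, 5.99 and 6.37. The means were 6.60 ± 0.05 (SD, n = 2) and 6.12 ± 0.22 (SD, n = 3), a difference of 0.48 ± 0.14 (SE; 95% interval 0.09 to 0.87, limma adjusted p = 0.698), with every array below the background reference. Ccnb2, a mitotic cyclin, read 8.03 and 7.96 against 7.87, 7.74 and 7.89, and Aurkb, the kinase of the chromosomal passenger complex, read 6.87 and 7.11 against 6.84, 6.78 and 6.70. The groups of both genes were separate by less than 0.1, with differences of 0.16 ± 0.07 (SE) and 0.22 ± 0.10 (SE). Aurkb differed by 0.099 without tumour-challenged replicate 2 and by 0.34 without replicate 1 of that group, and Ccnb2 by 0.077 after quantile normalization. Plk1, Polo-like kinase, differed by 0.17 ± 0.11 (SE) on its brighter probe set (6964033) without overlap and by 0.06 ± 0.11 (SE) on its other probe set (6929907) with overlap. Ccna2, cyclin A, was separate by a difference of only 0.04. All values of Plk1 and Ccna2, and all but 1 of Aurkb, lay below the background reference.

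The remaining mitotic genes showed overlapping groups. Aurka, the spindle pole kinase, read 7.60 and 7.40 against 7.77, 7.49 and 7.23, a difference of 0.00 ± 0.18 (SE). Cdk1, the kinase that starts mitosis, read 6.04 and 6.35 against 6.24, 6.15 and 6.17, where the tumour-challenged samples were the lowest and the highest of the 5, with a difference of 0.01 ± 0.11 (SE). The spindle checkpoint genes Bub1 and Bub1b both differed by -0.07, the kinesins Kif11 and Kif20a by -0.01 and 0.01, and the centromere kinesin Cenpe by -0.11. Birc5 (survivin, of the passenger complex) differed by -0.19 and Prc1, which bundles midzone microtubules, by -0.18, while Nusap1, a spindle protein, and Cdc20, the activator of the anaphase-promoting complex, differed by -0.05 and -0.01. Cdc20 had only 2 distinct values on the 5 arrays.

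**Figure D3:**
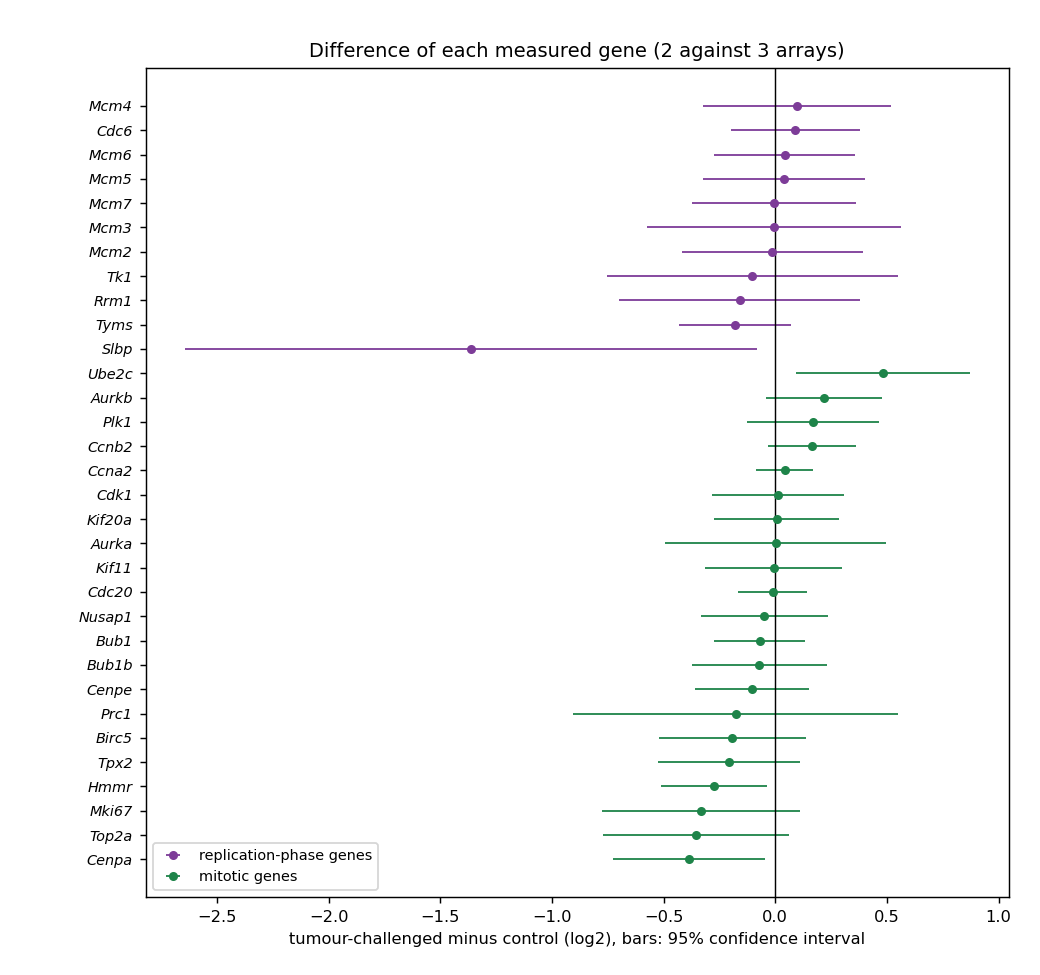
Difference of each measured gene, tumour-challenged minus control on the log2 scale, with its 95% confidence interval from limma (purple replication-phase, green mitotic genes; 2 against 3 arrays). Intervals leave out 0 for Slbp, Cenpa, Hmmr and Ube2c, at unadjusted level, and the mitotic genes spread to both sides of 0.

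Differences of both signs were found in both phases. Of the 11 replication genes 4 had a positive and 7 a negative difference, with a median of -0.01, and of the 21 mitotic genes 8 were positive and 13 negative, with a median of -0.05, against 0.02 for the table as a whole. Separate groups were found for 5 mitotic genes that lay higher (23.8%, against 11.2% of all probe sets) and 4 that lay lower (19.0%, against 7.83%), and for 0 replication genes that lay higher and 1, Slbp, that lay lower (9.09%). The mitotic counts were 2 higher and 5 lower with each array centred on its median, and 3 and 5 after quantile normalization. With the dimmest 25% of probe sets left out they were 5 and 2, of 17 genes. No share over all probe sets was taken under these alternatives. With fewer arrays, groups separate more readily by construction, so counts with an array left out cannot be set beside the 5-array shares. Leaving out single arrays gave 5 to 6 higher and 4 to 8 lower mitotic genes, with 8 lower without control replicate 2 and without tumour-challenged replicate 1. Replication genes then gave 0 to 2 higher and 1 to 4 lower, with 2 higher without tumour-challenged replicate 2, 4 lower without tumour-challenged replicate 1 and without control replicate 3, and 2 lower without control replicate 1 or 2 and with median centring. Per array, the median deviation of the mitotic genes from their control means was -0.02 and -0.05 in the tumour-challenged and 0.05, -0.05 and -0.02 in the control samples. For the replication genes these were 0.03 and -0.05 against 0.12, 0.00 and -0.18, so the tumour-challenged arrays lay within the range of the controls in both phases.

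Of 137 other listed genes of these pathways 122 were measured. None passed the test, 62 were higher and 60 lower, and the median difference was 0.01. The arrays did not overlap for 11 that lay higher (9.02%) and 12 that lay lower (9.84%). These shares were near those of all probe sets, 11.2% and 7.83%. Of 44 other mitotic genes 3 lay higher without overlap (6.82%, against 11.2% of all probe sets) and 9 lower (20.5%, against 7.83%). Their median was -0.01. Spc25, of the Ndc80 kinetochore complex, read 6.30 and 5.89 against 6.59, 6.59 and 6.79, a difference of -0.56 ± 0.16 (SE). Smc4, a condensin subunit that compacts mitotic chromosomes, read 9.19 and 8.76 against 9.29, 9.27 and 9.55, a difference of -0.39 ± 0.17 (SE). Ckap2, a spindle protein, differed by -0.40 ± 0.13 (SE) and Pbk, a mitotic kinase, by -0.39 ± 0.23 (SE). All values of Spc25, Ckap2 and Pbk lay below the background reference.

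Of 40 other replication genes 21 were higher and 19 lower, with a median of 0.01. Without overlap, 3 lay higher (7.5%, against 11.2% of all probe sets) and 2 lower (5.0%, against 7.83%). Gins4, of the GINS complex of the replicative helicase, read 9.87 and 9.46 against 9.39, 9.07 and 9.06 and lay higher without overlap by 0.49 ± 0.18 (SE). Gmnn, geminin, which blocks relicensing of origins, differed by 0.42 ± 0.29 (SE), with control replicate 3 inside the tumour-challenged range. Prim1, the primase subunit, differed by -0.39 ± 0.16 (SE) and Uhrf1, which keeps DNA methylation through replication, by -0.32 ± 0.14 (SE), both without overlap. Both group means of Prim1 and the tumour-challenged mean of Uhrf1 lay below the background reference.

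Regulators of the entry into S phase split in the same way, 11 of 21 higher and 10 lower. Cdk4, the kinase partner of D cyclins, differed by 0.41 ± 0.26 (SE), E2f8, a repressor of the E2F family, by 0.30 ± 0.19 (SE), E2f6, another repressor, by 0.27 ± 0.18 (SE) and Ccne2, cyclin E, by -0.27 ± 0.19 (SE), all with overlapping arrays. The arrays of 2 of the 21 lay higher without overlap (9.52%, against 11.2% of all probe sets) and of 0 lower (against 7.83%). Both are named after their values were seen. Cdc25a, a phosphatase that activates CDKs, differed by 0.19 ± 0.06 (SE; limma unadjusted p = 0.023) and E2f4, a repressive E2F factor of resting cells, by 0.15 ± 0.07 (SE). Of 9 CDK inhibitors and antiproliferative genes 5 were higher and 4 lower. Without overlap, 1 lay higher (11.1%, against 11.2% of all probe sets) and 0 lower (against 7.83%). Cdkn1b, the inhibitor p27 of cyclin E and A kinases, read 9.71 and 9.64 against 9.41, 9.38 and 9.22 and lay higher without overlap, at means of 9.67 ± 0.05 (SD, n = 2) and 9.34 ± 0.11 (SD, n = 3), a difference of 0.34 ± 0.08 (SE; limma adjusted p = 0.648). Btg2, an antiproliferative gene induced early by stress, differed by -0.32 ± 0.16 (SE), Cdkn2c by 0.36 ± 0.31 (SE) and Cdkn2a by 0.21 ± 0.18 (SE), all with overlapping arrays.

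**Figure D4:**
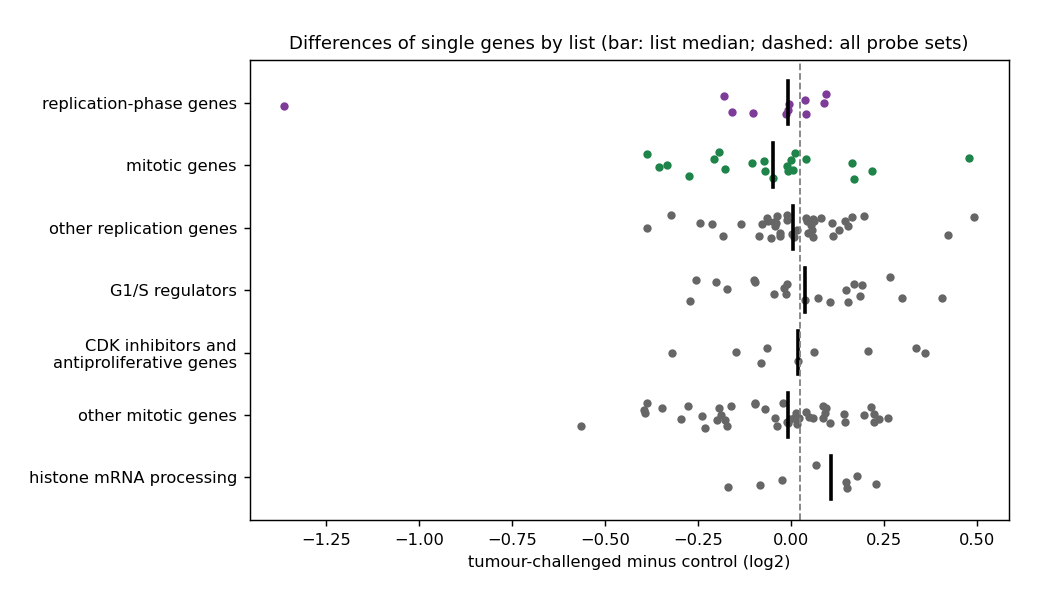
Differences of single genes, tumour-challenged minus control on the log2 scale, for the replication-phase and mitotic genes and for 5 lists of other cell cycle genes, with each list's median as a bar and the median of all probe sets (0.02) dashed. Every list straddles 0, and Slbp is the single point beyond -1.

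Markers of myeloid cells read brightly in both groups, and so did some markers of other cells. The 6 measured markers of mature neutrophils had array medians from 11.74 to 12.07, and all 6 lay above the background reference in both groups. Secondary granule genes, made at the stage when neutrophil precursors cease to divide, were higher in 7 of 7, with array medians of 10.48 and 10.23 against 8.74, 8.64 and 8.25. Primary granule genes, made in dividing precursors, were higher in 4 of 6 (6.91 and 6.63 against 6.50, 6.48 and 6.58), and 2 of the 6 had 5-array means above the background reference. Without overlap, 3 of the 6 lay higher and 1 lower, where all probe sets gave 11.2% higher and 7.83% lower. Prtn3, Ctsg and Cebpe were higher by 0.69, 0.33 and 0.29, and Mpo, the myeloperoxidase gene, was lower by 0.75. Cebpe, counted in this list, encodes a transcription factor and no granule protein. All values of Ctsg and the control values of Prtn3 lay below the background reference. B-cell markers were lower in 6 of 6 (median difference -0.65), alveolar macrophage markers lower in 6 of 7 (8.09 and 8.14 against 8.28, 8.31 and 8.31), and erythroid markers higher in 5 of 5 (7.26 and 7.28 against 6.54, 6.66 and 6.13). Monocyte markers were higher in 6 of 6, with a median difference of 0.19. Their median deviations from the control means were 0.48 and -0.08 against 0.28, -0.03 and -0.28, so only tumour-challenged replicate 1 lay above the controls. Lung epithelial markers were higher in 6 of 7, with a median difference of 0.28. Their median deviations were 0.28 and 0.28 against -0.20, 0.28 and -0.04, so control replicate 2 read like the tumour-challenged arrays. The surfactant gene Sftpc had means of 12.24 after tumour challenge and 11.74 in controls. Dendritic cell markers were higher in 2 of 6 and lower in 4, between -1.17 for Clec9a and 1.27 for Flt3. Separate arrays placed 6 of 7 secondary granule genes higher and 0 lower, and 1 of 6 mature neutrophil markers higher and 0 lower. For B-cell markers these counts were 0 and 4 of 6, and for alveolar macrophage markers 0 and 4 of 7. Erythroid markers gave 3 and 0 of 5, monocyte markers 2 and 0 of 6. Lung epithelial markers gave 2 and 0 of 7, dendritic cell markers 1 and 2 of 6. No gene of these lists passed the test, and the part of such cells in the values of Cenpa, Top2a, Mki67, Slbp and Ube2c was not tested. Array medians over all probe sets lay between 6.77 and 6.88 and upper quartiles ranged from 7.90 (control replicate 3) up to 8.23 (tumour-challenged replicate 1).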

How the data were processed

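CD11b+Gr1+ cells sorted from mouse lung were profiled on 5 arrays, 2 tumour-challenged and 3 control, and the number of arrays limits the precision. Log2 expression values for 16661 probe sets were deposited by the authors with 1 column per array, and the submitters' processing notes name RMA. The notes also name the build mm8 without a role, and the RMA version is not given in the sources used here. Equal values on 2 or more arrays occur in 3259 probe sets (19.6%), among them 3 of the cell cycle genes, which makes some spreads too small.

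Probe sets were named from the platform annotation: 14939 carried 1 symbol, updated by gene number for 14884, 989 carried several and were not named, and 733 were unnamed here. limma 3.58.1 in R 4.3.3 fitted tumour-challenged against control with moderated variances over all probe sets, two-sided, with 3 residual and 1.36 prior degrees of freedom. The fit was also run on simulated data with independent normal errors and planted differences of 2-fold or more. That run does not bear on smaller differences or on probe sets with equal values. Whether arrays overlapped was noted beside the test. Genes were chosen, and lists and tests set, with earlier results of these data known. Values on every array were given for the 6 largest differences and 4 highest means in each phase, and for a few named genes, and up to 4 genes of each pathway list with the largest differences were named. Alternatives were an intensity trend with robust variances, median centring, quantile normalization, leaving out the dimmest 25% of probe sets, averaging probe sets of a gene, leaving out each array, and the replicate number as a block. Promoter windows are RefSeq's, matched by symbol for 31 of 37 genes.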

Additional observations from a re-analysis of the deposited data

How the results depend on the processing

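No probe set was called by limma in 9 of the alternatives that refitted the test, and 1 was with each array centred on its median, the probe set of Ltf, a secondary granule gene. At an unadjusted p under 0.05 the main test gave 597 higher and 493 lower. The median difference of the mitotic genes ran from -0.10 (without control replicate 2) to -0.015 (without control replicate 1) when single arrays were left out, and that of the replication genes from -0.11 to 0.05. When a tumour-challenged array was left out, the lone array was assumed to vary like the controls. Of 185 comparisons of 17 named genes with their alternatives, 19 changed sign, in 7 genes with main differences from -0.16 (Rrm1) to 0.10 (Mcm4), and none was called. Leaving out single arrays, Mcm4 ran from -0.052 to 0.24, Mcm5 from -0.080 to 0.097, Mcm6 from -0.047 to 0.11, Rrm1 from -0.35 to 0.029, Tk1 from -0.25 to 0.11, Cdk1 from -0.14 to 0.17 and Aurka from -0.13 to 0.14. With centring Cdk1 was at -0.018 and Aurka at -0.029, and with quantile normalization Mcm6 was at -0.021 and Aurka at -0.066. With the replicate number as a block Mcm5 was at -0.080, Mcm6 at -0.047 and Aurka at -0.13, the median was -0.11 for replication and -0.079 for mitotic genes, and 0 probe sets were called. Same-numbered arrays of the groups deviated together with r = 0.29 for number 1 and 0.22 for number 2 across probe sets. The 2 tumour-challenged arrays deviate from their mean by equal and opposite amounts. Crossed numbers therefore gave -0.29 with control replicate 1 and -0.22 with control replicate 2, and these values are not independent. The labels do not say that a number marks a shared mouse or day. Slbp, Cenpa, Top2a, Mki67, Hmmr, Ube2c, Ccnb2 and Aurkb kept their direction in every alternative that gave a value, and Hmmr had none with the dimmest 25% left out. The cause of these shifts was not tested.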
